A study of Caenorhabditis elegans with 2 samples.

Results

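The 6 genes *zip-2*, *zip-3*, *zip-4*, *zip-5*, *zip-10* and *zip-11* encode bZIP transcription factors of *Caenorhabditis elegans* and were examined for regions bound by UNC-98::GFP. They are 6 of the 19973 protein-coding genes of the annotation and were chosen from the zip family with the regions at these genes already known, so whether they are bound is a description and was not tested. A gene counted as bound when the summit of a region lay between 1000 bp upstream and 500 bp downstream of the 5′ end of a coding transcript. RefSeq names 5 of the products as transcription factors and that of *zip-5* as a protein with a bZIP domain. The files hold no expression values, so a role in stress could not be checked from them.

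ChIP-seq was done on whole L1 larvae of strain OP85, 6 hours old and starved after bleaching, in 2 biological replicates that form 1 group. The larvae carry the transgene wgIs85, in which *unc-98* is joined to TY1, EGFP and 3xFLAG tags, with an *unc-119*(+) rescue gene in an *unc-119*(ed3) mutant background, and both replicates share all of this. Chromatin was precipitated with an anti-GFP antibody, while the antibody label of both replicates reads unc-98. The labels do not say in which cells the transgene is expressed, and whole larvae mix all tissues. An untagged strain was not analysed here, and signal that does not depend on the tag cannot be told apart from that of UNC-98. The region lists carry no counts of reads. Depth is therefore unknown, and no interval is given for any signal.

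bZIP factors bind DNA as dimers through a basic region that continues into a leucine zipper, and members of the family pair with each other in many combinations. In *C. elegans* several of them act in stress and immunity. ZIP-2 turns on infection response genes when pathogens or toxins block translation, ZIP-3 holds back the mitochondrial unfolded protein response, ZIP-10 acts in a death programme after cold shock, and ZIP-11 takes part in intestinal defence against bacteria. UNC-98 itself has C2H2 zinc fingers and is best known from the sites where muscle attaches, and it has been found in nuclei too.

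The sequences under the strongest regions are shown first, so that *zip-2* can be set beside an unbound member and other bZIP genes. No sequence is printed for *zip-4*, and only a short stretch for *zip-11*. Each is printed 5′ to 3′ on the strand of its gene, from the RefSeq copy of WBcel235, the assembly that ce11 names. Capitals mark exact matches on either strand to ACGTCA (part of the cAMP response element TGACGTCA), TGACTCA (the AP-1 element), TTGCNNAA (a loose C/EBP element), GTCATCA (a SKN-1 core), CACGTG (the E-box), GAANNTTC (a heat shock element unit) or TGATAAG (bound by GATA factors). The *zip-2* window is the 200 bp around the summit (chrIII:833759-833958, plus strand). For *zip-11* the summit lies in the 5′ UTR and only its central 30 bases are shown (chrIV:3311391-3311420, plus strand). The *zip-3* window surrounds its strongest candidate region, which did not pass the threshold (chrII:13956718-13956917, minus strand). For comparison with the rest of the family, the 100 bases just upstream of *xbp-1*, inside its region (chrIII:4193709-4193808, plus strand), and the 200 bp around the *cebp-1* summit (chrX:1454454-1454653, minus strand) are given.
zip-2: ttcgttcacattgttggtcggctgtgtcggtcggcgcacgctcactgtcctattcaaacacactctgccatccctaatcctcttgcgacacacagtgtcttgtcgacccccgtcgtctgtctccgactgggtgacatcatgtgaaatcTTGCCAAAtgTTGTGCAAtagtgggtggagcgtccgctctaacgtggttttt
zip-11: tcaccgcactgcctaaccgacctatctctg
zip-3: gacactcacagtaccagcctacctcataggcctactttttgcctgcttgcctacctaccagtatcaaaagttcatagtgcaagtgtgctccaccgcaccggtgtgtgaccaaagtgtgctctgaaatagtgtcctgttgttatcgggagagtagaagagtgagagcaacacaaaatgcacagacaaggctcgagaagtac
xbp-1: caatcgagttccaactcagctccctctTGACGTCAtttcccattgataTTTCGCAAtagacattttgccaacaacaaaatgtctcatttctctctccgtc
cebp-1: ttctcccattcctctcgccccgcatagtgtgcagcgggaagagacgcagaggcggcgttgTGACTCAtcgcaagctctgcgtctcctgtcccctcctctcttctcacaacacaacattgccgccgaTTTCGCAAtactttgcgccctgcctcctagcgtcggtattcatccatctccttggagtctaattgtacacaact

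The genes lie apart in the genome. *zip-2* (WBGene00019327) is at chrIII:832982-835814 on the plus strand and has 3 coding 5′ ends, and *zip-3* (WBGene00012330) is at chrII:13951904-13957457 on the minus strand and has 2. *zip-4* (WBGene00021552) is at chrI:3264111-3266762 on the minus strand with 4, and *zip-5* (WBGene00007932) is at chrV:13264545-13269827 on the plus strand with 3. *zip-10* (WBGene00012101) is at chrV:11650079-11650762 on the minus strand and *zip-11* (WBGene00021082) is at chrIV:3311276-3313189 on the plus strand, each with 1.

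Of the 6 genes, *zip-2*, *zip-4* and *zip-11* had a region in the conservative list, which rests on agreement of both replicates, and *zip-3*, *zip-5* and *zip-10* had none. The share over all protein-coding genes was 3.16%, and no reading of the count of 3 against it is made because the genes were chosen with these regions known. The second thresholded list of the series, at a background of 3.38%, held *zip-4* and *zip-11*. The list of replicate 1 alone held *zip-2* and *zip-4*, where 2.89% of genes were bound, and that of replicate 2 alone held *zip-11* only, where 1.79% were. Each bound member was therefore past the threshold in the list of a single replicate, and none was past it in both. What the second list and the lists of single replicates take as agreement is not stated in the files.

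The threshold of these lists is an IDR (irreproducible discovery rate) of 0.01, which is 2 on the −log10 scale. In the list ranked between replicates the bound member closest to it was *zip-11*, at a −log10 IDR of 2.05, and the unbound member closest to it was *zip-3*, at 0.287. In the second ranked list the pair was *zip-11* inside at 2.52 and *zip-2* outside at 1.21. In replicate 1 it was *zip-2* inside at 2.01 and *zip-11* outside at 1.29, and in replicate 2 it was *zip-11* inside at 2.09 and *zip-4* outside at 0.462. At *zip-2* the highest value in replicate 2 was 0.0923, and its strongest region there had 0.0334. The 3 bound members thus lay just inside the threshold in the list ranked between replicates (2.05 to 2.25). In replicate 2 *zip-2* and *zip-4* were far outside it. None of the 3 reached an IDR of 0.001 in the conservative list, which 1.45% of all genes did.

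The ranked lists give values for the unbound members too. A candidate region with its summit in the promoter windows of a gene existed for all 6 members, but also for 92.2% of all protein-coding genes in the list of the series, for 86.2% in replicate 1 and for 88.0% in replicate 2, so its presence separates no gene from another. The highest promoter signal, the score of the authors' software, was used to order genes within a list. In the list of the series it was 91.3 at *zip-4*, 81.4 at *zip-2*, 78.9 at *zip-11*, 40.0 at *zip-3*, 35.8 at *zip-5* and 24.7 at *zip-10*. The median over all protein-coding genes was 27.8 and the 95th percentile was 57.7. The 3 bound members were thus above the 95th percentile, and *zip-3* and *zip-5* were between it and the median. *zip-10* was below the median in this list, above 39.9% of genes. The bound regions were called from this same list, which itself favours a high place for them. In the replicates' own lists *zip-10* was above the median gene, with a higher signal than 56.4% of genes in replicate 1 and 68.9% in replicate 2.

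**Figure D1:**
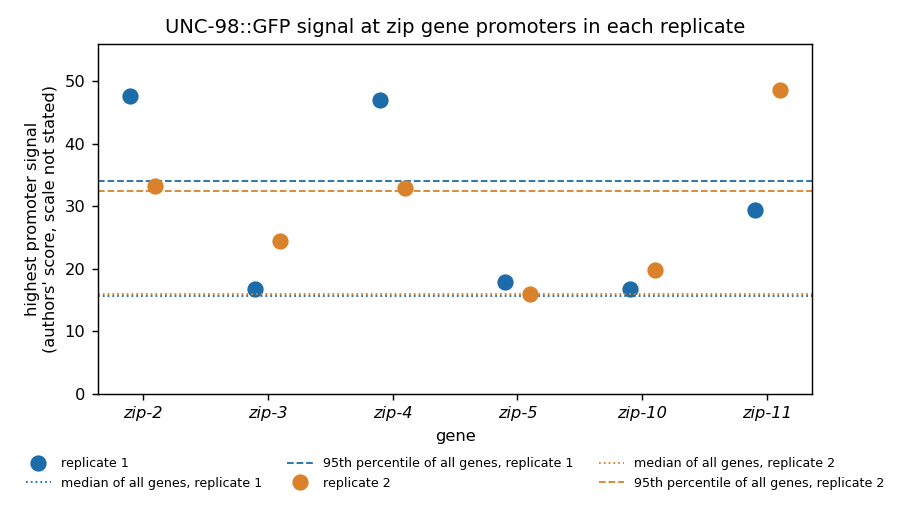
Highest signal of any candidate region in the promoter windows of each zip gene (vertical axis, authors' score) in replicate 1 (blue) and replicate 2 (orange), with the median (dotted) and the 95th percentile (dashed) over all 19973 protein-coding genes of each replicate. *zip-2* and *zip-4* were above the 95th percentile in both replicates, *zip-11* in replicate 2 only, and *zip-3*, *zip-5* and *zip-10* in neither.

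In each replicate taken alone the order was less even. At *zip-2* the highest promoter signal was 47.7 in replicate 1 and 33.3 in replicate 2, above that of 97.0% and 95.4% of all genes. At *zip-4* it was 47.0 and 33.0, above 97.0% and 95.3%. At *zip-11* it was 29.4 and 48.7, above 92.6% and 98.2%. The scores of the replicates come from separate lists, so the ranks are compared and not the scores: *zip-2* and *zip-4* ranked higher among genes in replicate 1 and *zip-11* in replicate 2.

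The unbound members were lower in both replicates. *zip-3* had 16.7 and 24.5 in replicates 1 and 2, *zip-5* had 17.9 and 15.9998, and *zip-10* had 16.8 and 19.8. The medians over all genes were 15.6 and 15.9, so *zip-5* in replicate 2 was at the middle of the genome (above 50.3% of genes). The order within each bound and unbound set changed between replicates, with *zip-2* first in replicate 1 and *zip-11* first in replicate 2, so neighbours in the order cannot be told apart. Within replicate 1 the bound members (29.4 to 47.7) and the unbound ones (16.7 to 17.9) did not overlap, and within replicate 2 they did not either (33.0 to 48.7 and 15.9998 to 24.5), which the choice of bound against unbound members itself favours.

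The conservative list was made from both replicates, and 722 of its 728 regions overlapped a listed region in each. Close summits at the bound members are therefore favoured by the way they were called. The summits of the highest region in each replicate lay 2 bp apart at *zip-4*, 46 bp apart at *zip-11* and 76 bp apart at *zip-2*. Among the unbound members they lay 25 bp apart at *zip-5*, but 738 bp apart at *zip-10* and 898 bp apart at *zip-3*. For *zip-10* the replicate 1 region was in a coding exon, 467 bp downstream of the 5′ end, while that of replicate 2 was 271 bp upstream of it. For *zip-3* the replicate 1 region was 318 bp upstream of the outer 5′ end, and that of replicate 2 was 885 bp upstream of the inner one, inside an intron. These distances depend on which region is highest in each replicate. At *zip-3* the highest replicate 1 region (16.7) was nearly tied with the next (16.5), which had its summit at 13956709. A weaker replicate 1 region (2.55) had its summit at 13956913. Both of these lay nearer to the replicate 2 summit at 13956877 than the highest one did.

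**Figure D2:**
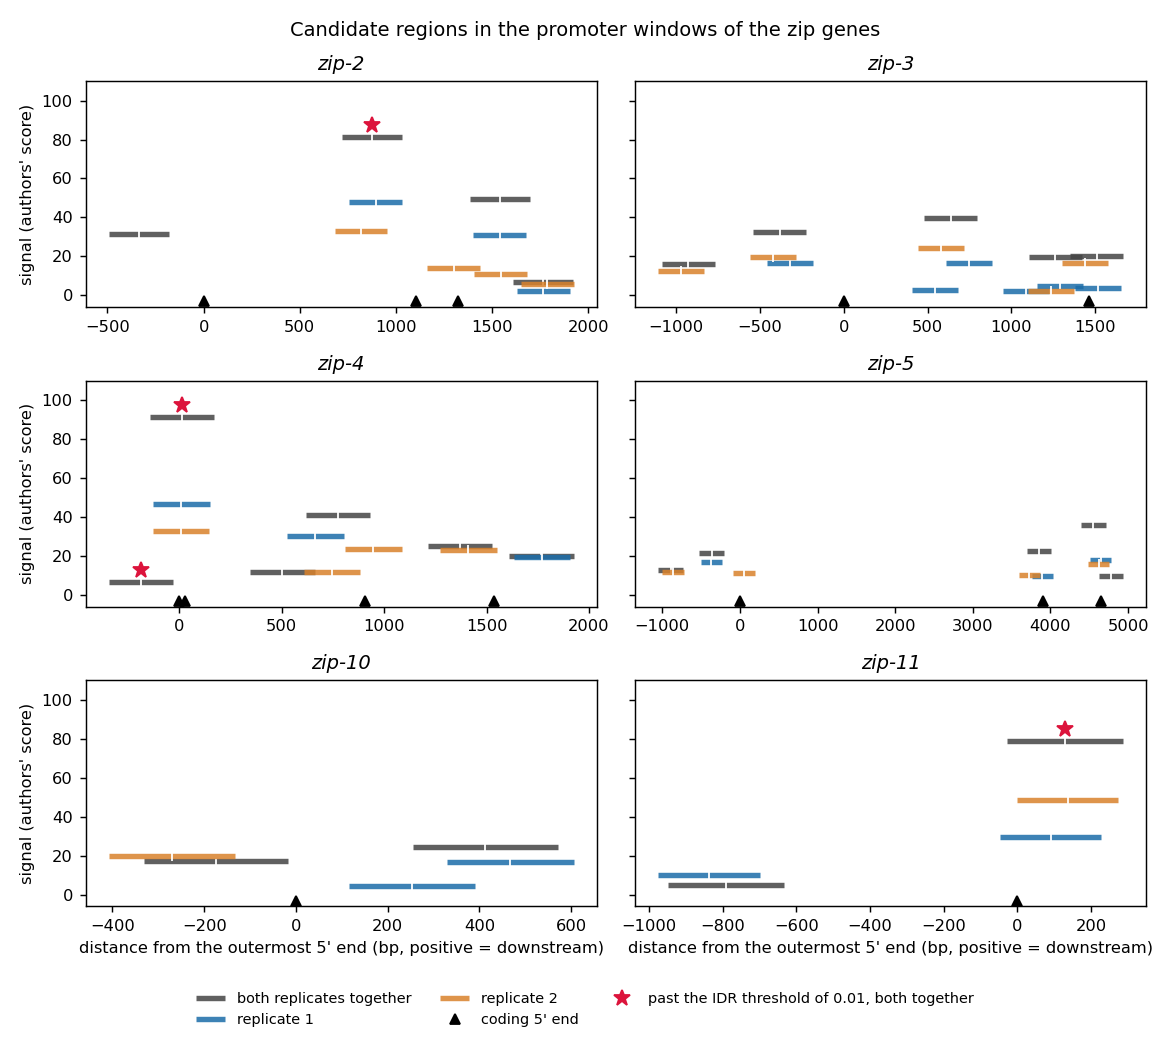
Candidate regions in the promoter windows of each gene, drawn at their width along the distance from the outermost 5′ end (bp, horizontal axis) and at the height of their signal (vertical axis, authors' score), for both replicates together (grey), replicate 1 (blue) and replicate 2 (orange). White ticks are summits, triangles are coding 5′ ends, and red stars mark regions past the IDR threshold of 0.01 with both replicates together, which occur at *zip-2*, *zip-4* and *zip-11*.

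At *zip-2*, the infection response factor, the bound region lay inside the annotated gene (chrIII:833701-834016, 316 bp). Its summit was 229 bp upstream of the 5′ end of transcript K02F3.4.1, which is the nearest, and in an intron of the longest transcript, K02F3.4.3, which starts at 832982. A candidate region 335 bp upstream of that outer 5′ end, which also lies in a window of *ceeh-1*, had a signal of 31.6 with a −log10 IDR of 0.120, so the upstream start was not bound at the threshold. Another candidate, with its summit in a coding exon 218 bp downstream of the innermost 5′ end, had 49.6 in the list of the series and 30.9 in replicate 1 and 10.7 in replicate 2, and did not pass (0.0904). The gene also contains the snoRNA gene K02F3.15 (chrIII:833435-833609), 250 bp from the summit of the bound region. The lincRNA gene *linc-37* (chrIII:832984-833347) lies inside it too, 512 bp from that summit. At the other 5 members the nearest snoRNA gene was 9739 bp or more from the summit of the strongest region.

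At *zip-4* the bound region spanned the 5′ end and was shared with a second gene (chrI:3266592-3266907, 316 bp). The summit lay 12 bp downstream of the outermost 5′ end, in the 5′ UTR of 1 transcript, and 344 bp upstream of the start of *nol-58*, which is transcribed in the opposite direction. *nol-58* encodes a Nop domain protein, the family of core proteins of box C/D snoRNA particles that modify ribosomal RNA. Of the 477 conservative regions in promoter windows, 182 counted for several genes, and a region at such a place cannot be given to either gene by these data.

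The conservative list also held a second region at *zip-4*, 200 bp further upstream and sharing 116 bp with the first (chrI:3266792-3267107). Its signal was 6.72, rank 723 of 728, against 91.3 for its neighbour, and it matched the same region in each replicate as the neighbour did (47.0 and 33.0). All 11 conservative regions with a signal under 10 shared their replicate regions with another conservative region in this way. Its presence in the list is therefore not a second measurement, and *zip-4* was counted once. The inner starts of *zip-4* had candidate regions of 41.1 and 25.3 in the list of the series, with a −log10 IDR of 0.0992 and 0.104.

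At *zip-11*, the intestinal defence factor, the bound region began just upstream of the only annotated 5′ end and lay mostly downstream of it (chrIV:3311248-3311563, 316 bp). The summit was 130 bp downstream of the 5′ end, in the 5′ UTR, and it was downstream of it in each replicate as well, by 91 bp and 137 bp. Of the 477 conservative promoter regions, 51 (10.7%) had their summit downstream of the nearest 5′ end, and 32 had it more than 100 bp downstream. The window reaches 500 bp downstream against 1000 bp upstream, which itself favours upstream summits. The summits at *zip-4* and *xbp-1* were also downstream, though closer to the 5′ end. No other gene had the bound region of *zip-11* in a promoter window. The other candidate at *zip-11*, 791 bp upstream, had a signal of 5.18.

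**Figure D3:**
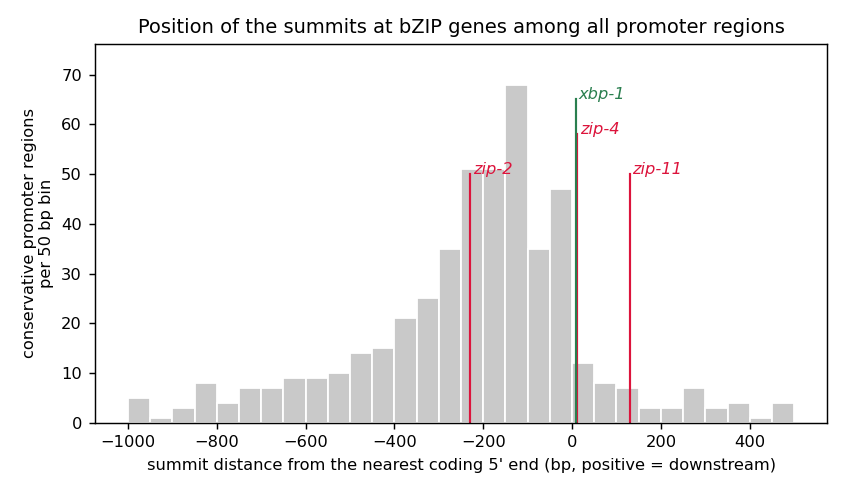
Number of conservative promoter regions (vertical axis, 50 bp bins) by the distance of the summit from the nearest coding 5′ end (bp, horizontal axis), with the summits at *zip-2*, *zip-4* and *zip-11* (red) and *xbp-1* (green) marked. Most of the 477 summits lay upstream, with a median of -186 bp, that of *zip-2* lay near this peak, and those of *zip-4*, *xbp-1* and *zip-11* lay downstream of the 5′ end.

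The unbound members had only candidate regions short of the threshold, and in the list of the series their highest signal was above that of 81.1% of all genes at *zip-3*, 72.9% at *zip-5* and 39.9% at *zip-10*. In replicates 1 and 2 the shares were 55.9% and 84.7% at *zip-3*, 61.7% and 50.3% at *zip-5*, and 56.4% and 68.9% at *zip-10*. With windows from 2000 bp upstream the share was 73.6% at *zip-3*, 62.4% at *zip-5* and 24.5% at *zip-10*. All these shares are over all genes, whatever the length of their windows. *zip-3*, the mitochondrial response regulator, had its strongest one in an intron of its longer transcript (chrII:13956660-13956975, signal 40.0), where the region with most shared bases had 2.55 in replicate 1 and 24.5 in replicate 2. A neighbouring replicate 1 region that also overlapped it had 16.5. Its best supported candidate lay 382 bp upstream of the outer 5′ end, with a signal of 32.4 and a −log10 IDR of 0.287. *zip-5* has starts at 13264545, 13268450 and 13269196, and the strongest of its 5 candidates was 99 bp upstream of the innermost (35.8, −log10 IDR of 0.238). *zip-10*, the cold shock factor, had 2 candidates, of which the stronger (24.7) was in a coding exon and the one upstream of the 5′ end had 17.4.

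Genes with several starts have longer windows and more chance to hold a summit. The windows covered 2824 bp at *zip-2*, 2966 bp at *zip-3*, 3039 bp at *zip-4* and 3748 bp at *zip-5*, against the 1501 bp of a single start at *zip-10* and *zip-11*. Of all genes with windows of 1501 bp, 2.50% had a conservative region, and of those with more than 2800 bp, 5.55% had. The median highest signal in the list of the series was 26.4 at the former and 36.3 at the latter. Against genes with windows of more than 2800 bp, *zip-5* (35.8) was just below the median and *zip-3* (40.0) was above it. The density of candidate regions at the members ran from 1.33 to 1.97 per kb, where the median gene had 1.33.

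Among the 728 conservative regions those of the bound members were of low signal. That of *zip-4* ranked 464, that of *zip-2* 533 and that of *zip-11* 553, all below the median signal of 105. The ratio of the replicate 1 score to the replicate 2 score joins separate lists and is read only against the same ratio at other regions. It was 1.43 at *zip-2*, 1.42 at *zip-4* and 0.604 at *zip-11*. Over the 722 regions with a value in both replicates the median ratio was 1.18, with quartiles of 0.919 and 1.49. The ratio of *zip-11* was higher than that of only 2.22% of these regions, while those of *zip-2* and *zip-4* were within the quartiles.

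**Figure D4:**
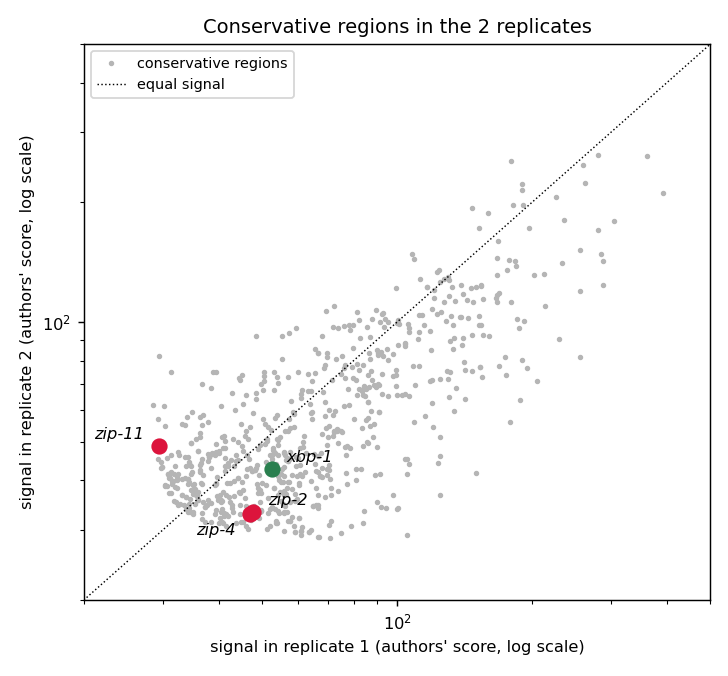
Signal in replicate 1 (horizontal axis, authors' score, log scale) and in replicate 2 (vertical axis, log scale) of the conservative regions (grey), with the regions of the bound zip genes (red) and of *xbp-1* (green). *zip-2* and *zip-4* nearly coincide at 47.7 and 33.3, and 47.0 and 33.0, while *zip-11* (29.4 and 48.7) is at the left edge of the cloud.

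The pair of replicate signals was compared over the 471 conservative promoter regions with both values, by distance on the log2 scale over these 2 libraries. Nearest to *zip-2* was F02C12.3 (47.8 and 33.6, distance 0.014), followed by the region of *zip-4* and *nol-58* (0.026). Nearest to *zip-4* were *zip-2* and then F02C12.3 (0.037). Nearest to *zip-11* were C47G2.4 (29.3 and 45.3, distance 0.10) and the nuclear receptor gene *nhr-255* (30.6 and 45.5, distance 0.12).

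Base composition of the 200 bp around the summit differed among the bound members. GC content was 55.0% at *zip-11*, 52.5% at *zip-2* and 43.0% at *zip-4*. The median over the 728 conservative regions was 43.0%, with quartiles of 38.5% and 48.5%, so *zip-2* and *zip-11* were above the upper quartile.

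Motif matches at the members are given beside the share of other windows that hold each motif, and with 6 windows no difference from that share can be read. All 14 motifs were searched as exact letters on both strands, in 200 bp windows around the strongest region of each gene. TGACGTCA had 0 matches at all 6 members, and so had its part ACGTCA, the AP-1 element TGACTCA and the SKN-1 core GTCATCA. These were present in 0.549%, 6.04%, 2.20% and 1.92% of the conservative windows, and in 0.936%, 6.90%, 2.50% and 2.76% of the windows just upstream of all coding genes. TTGCNNAA occurred at 2 places in the *zip-2* window, both in capitals in the printed sequence, and at 0 places in those of the other members. It is a common motif, present in 19.5% of the conservative windows and in 18.7% of the 200 bp upstream of all coding genes. The strict form TTGCGCAA had 0 matches at the members and was present in 1.10% and 0.330%.

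The E-box CACGTG, the GATA element TGATAAG, the heat shock unit GAANNTTC and the TATA box TATAAA also had 0 matches at all 6 members. They were present in 7.55%, 1.24%, 14.4% and 14.1% of the conservative windows and in 4.21%, 7.07%, 12.6% and 30.4% of the upstream windows. Overlapping matches were counted separately. GAGAGA had 2 matches at *zip-11* and 0 at the other members, and was present in 32.1% and 16.3%. TTTTTT had 4 matches at *zip-11* and 2 at *zip-4*, and was present in 53.2% and 70.4%. GCAAT, part of the C/EBP element, had 1 match at *zip-2* and 1 at *zip-10*, and was present in 34.3% and 31.2%. TGAGTCA is the same element as TGACTCA on the other strand, and the 8 letters of TGACGTCA hold ACGTCA.

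The family beyond the members was read from a list of 29 bZIP genes that matched the annotation, of which 23 are not members. Of these 23, only *xbp-1* had a conservative region, which is 4.35% against the 3.16% of all genes. In the second list *xbp-1* and *cebp-1* had a region (2 of 23), in replicate 1 *cebp-1* alone and in replicate 2 none, at the backgrounds given above. A count of 0 of 23 allows a share of up to 13.0% by a rough bound, 3 divided by the number of genes. That bound takes the genes as drawn at random, which these were not. The other 6 genes named zip (*zip-1*, *zip-6*, *zip-7*, *zip-8*, *zip-9* and *zip-12*) had no region in any thresholded list.

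*xbp-1* encodes the factor that IRE-1 activates in the unfolded protein response of the endoplasmic reticulum. Its region spanned the 5′ end (chrIII:4193672-4193987, signal 81.9; 52.5 in replicate 1 and 42.7 in replicate 2), with the summit 9 bp downstream of the nearest start, close to the 12 bp at *zip-4*. It had a −log10 IDR of 2.61, higher than those of all 3 bound members, and was past the threshold in neither replicate alone (1.53 and 1.96). TGACGTCA occurred once in the *xbp-1* window, where 4 of the 728 conservative windows (0.549%) held it. *cebp-1*, a C/EBP factor known from axon regeneration, had a region 686 bp upstream of its 5′ end (chrX:1454396-1454711, signal 68.6), with 53.9 in replicate 1 and 22.7 in replicate 2. The −log10 IDR of this region was 1.08 in the list of the series, outside the threshold, and 2.01 in the second ranked list. In the replicates it was 2.59 in replicate 1 and 0.0356 in replicate 2. The printed *cebp-1* sequence holds TGACTCA.

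The unbound bZIP genes with the highest promoter signal were *cebp-2* (67.6; 41.0 and 19.8 in replicates 1 and 2), whose product acts with ZIP-2, the CREB gene *crh-1* (66.9; 38.1 and 46.0) and *atf-7* (61.8; 23.7 and 34.3), a factor downstream of the p38 kinase in immunity. All 3 were above the 95th percentile of the genome. In the list of the series *crh-1* fell just short of the threshold of 2, at a −log10 IDR of 1.98. The highest −log10 IDR was 1.16 at *atf-7* and 0.629 at *cebp-2*. Over the 23 genes the median highest signal was 38.4, and 16 of them were above the median gene of the genome. The lengths of their windows were not taken into account, and genes with windows of more than 2800 bp had a median of 36.3. At *ces-2* no candidate region was listed in the window in the list of the series.

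**Figure D5:**
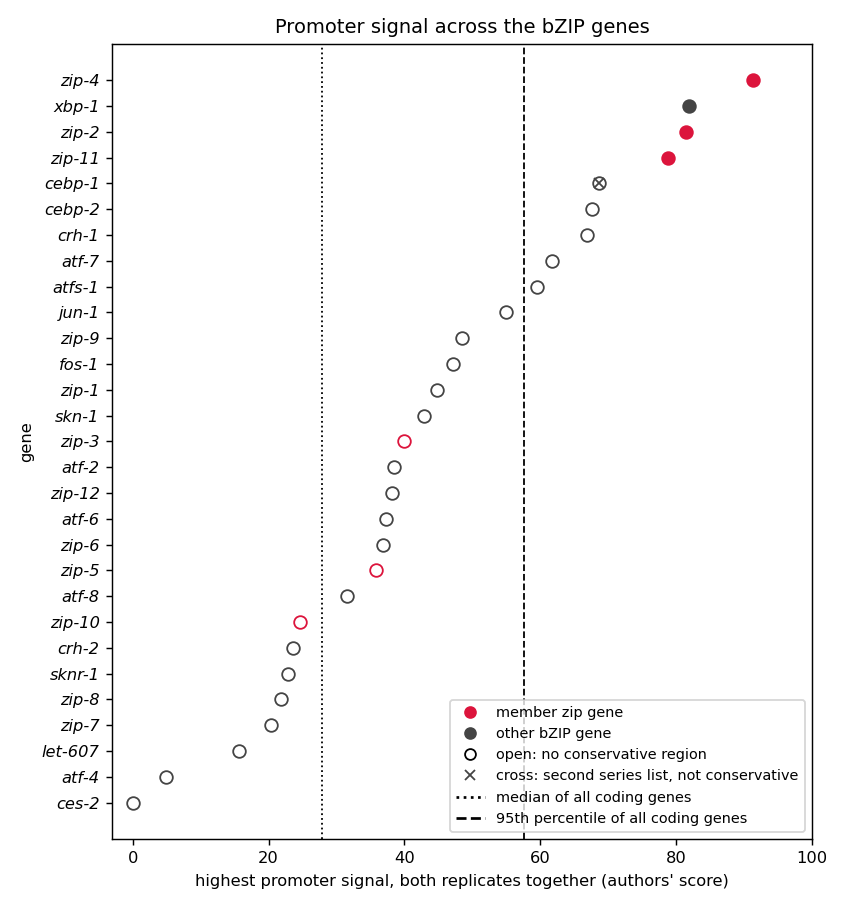
Highest promoter signal with both replicates together (horizontal axis, authors' score) of the 29 bZIP genes (rows, ordered by signal), members in red and others in grey. Filled circles have a conservative region, a cross marks a gene of the second series list that is not in the conservative one, and the dotted and dashed lines are the median (27.8) and the 95th percentile (57.7) of all coding genes. The 4 filled circles (*zip-4*, *xbp-1*, *zip-2* and *zip-11*) have the highest values, which calling the conservative regions from this same list itself favours.

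Regulators that act beside these factors had no region. Of 25 genes of stress and immunity, among them *daf-16*, *hsf-1*, the p38 pathway genes *tir-1*, *nsy-1*, *sek-1* and *pmk-1*, and *isy-1*, 0 had a summit in a promoter window in any of the 4 thresholded lists. By the same rough bound, a count of 0 of 25 allows a share of up to 12%. The share over all genes was 3.16% in the conservative list. The list of regulators was not a random draw, so no reading of the count of 0 is made. Their median highest signal was 26.2, where that of all genes was 27.8. The highest were *dve-1* (55.4) and *tir-1* (55.0), both below the 95th percentile.

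At the target's own gene, *unc-98*, no candidate region was listed in the promoter window in the list of the series. The rescue gene *unc-119* had a highest signal of 42.0 and no region past the threshold.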

How the data were processed

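UNC-98::GFP ChIP-seq of whole starved L1 larvae was available for 2 replicates, as 8 region lists made by the authors. Per the files that describe the lists, reads were aligned to ce11, and filtered alignments with a control file gave each list. Neither aligner nor peak caller is named in the sources used here. Per the labels, chromatin was sonicated to 200 to 800 bp. Regions were called by the authors per replicate and on both together. The signal of each region is the authors' deposited score, at a scale not stated, comparable within a list only. Ranked lists also carry a deposited −log10 IDR for each region, with a ceiling of 5. Depth is unknown, so no interval is given.

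Summits were set against coding transcript 5′ ends of Ensembl release 115 on the 6 nuclear chromosomes, with Python 3.11.15 and pandas 2.3.3. The value of a region in a replicate was that of the region with most shared bases, 1 or more, in that replicate's ranked list. Genes were ranked by their highest promoter signal, with 0 where none was listed. No test was run, since there is 1 group of 2 replicates and the genes were chosen with these lists known. The members and gene lists were chosen with earlier results of these data known; of 30 bZIP symbols 29 matched and of 25 regulators 25 did. Genes named are all members, genes sharing their regions, and the 2 most alike per member. Other bZIP genes bound in a series list and the 3 highest of the rest are named too. Further genes were named outside this rule, after their values were seen. They are *dve-1*, *tir-1*, *ces-2*, *skn-1*, *hif-1*, the snoRNA and lincRNA genes inside *zip-2*, and the other zip genes. The genes of the target and of the rescue, and the regulators given as examples, are also among them. Gene assignment was checked on regions placed at known offsets. Alternatives covered the list, each replicate, the IDR threshold, the window, the assignment, the overlap and the motif window.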

Additional observations from a re-analysis of the deposited data

How the results depend on the processing

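The count of bound members was 3 in the conservative list and stayed at 3 with windows of 500 bp upstream to 200 bp downstream (2.50% of all genes bound), windows from 2000 bp upstream (4.12%), the nearest 5′ end alone (2.27%), and any overlap in place of the summit (3.35%). It was 2 in the second list, between 1 and 2 with a replicate left out, and 0 at an IDR of 0.001, since no member region reached it. The count of bound bZIP genes, 4 of 29, was between 1 and 3 with a replicate left out, 0 at an IDR of 0.001, and 5 with windows from 2000 bp upstream, which added *skn-1*. The regulators stayed at 0 except with windows from 2000 bp upstream, which gave 1 (*hif-1*), at the same background of 4.12%. The count of bZIP genes without the members, an alternative chosen after seeing the data, was 1 in the conservative list and between 0 and 2 in the other settings. Taking the highest replicate region in the window, in place of the one with most shared bases, moved the replicate 1 value of *zip-3* from 2.55 to 16.7 and the replicate 2 value of *zip-10* from 9.74 to 19.8, and left the other 10 values as they were. Windows of 500 bp upstream to 200 bp downstream put *zip-5* above 84.5% of genes, in place of 72.9%. Windows from 2000 bp upstream put *zip-5* above 62.4%, and *zip-10* above 24.5% in place of 39.9%. Without replicate 1 *zip-5* was above 50.3% and *zip-3* above 84.7%. Leaving out replicate 2 put *zip-5* above 61.7%, and *zip-3* above 55.9% in place of 81.1%. Without replicate 1 or 2 *zip-10* turned to the upper side of the median gene (68.9% and 56.4%). The causes were not tested. No paired analysis was possible because there is 1 group. The lists give no read counts, so what depth limits is not known.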
